A study of Mus musculus with 12 samples.

Results

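Axin2, Nkd1, Notum, Rnf43, Znrf3, Lgr5, Tnfrsf19, Sp5, Tbx3 and Lef1 are 10 genes that β-catenin and its partners of the TCF/LEF family switch on directly, most of which act back on the Wnt pathway. They were followed here by every probe set of the array whose annotated symbol was exactly that of a member, which gave 23 of the 45101 probe sets and 10 of the 18194 genes that probe sets named alone. Liver RNA came from male mice on the 129J background, 3 arrays in each of 4 groups: wild type (WT) and Iqgap2 knockout (KO) at 6 months, and the same genotypes at 24 months. IQGAP2 is a scaffold protein abundant in hepatocytes, and the knockout was in the germline, so that every cell of the body lacked it. Normal liver was the source in the groups WT 6 months, KO 6 months and WT 24 months. In KO 24 months tumor it was hepatocellular carcinoma, the main cancer of hepatocytes, so that age and tumor tissue cannot be told apart within the KO. All mice had a regular diet. Values are log2 intensities after robust multi-array averaging (RMA), a scale on which a difference of 1 means 2-fold. They have no true zero, and levels cannot be set against each other between probe sets.

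In cells without a Wnt signal, a destruction complex built on Axin and APC marks β-catenin for breakdown. When Wnt binds Frizzled and LRP receptors the complex stalls, and β-catenin enters the nucleus, joins TCF/LEF proteins and raises its target genes, among them inhibitors that turn the signal down again. In healthy liver this signal is strongest in the hepatocytes around the central vein, where it sets a program of glutamine synthesis and drug metabolism. Hepatocellular carcinomas with activating mutations of the β-catenin gene are known for high levels of many of its targets.

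The labels needed a check first. Iqgap2, the deleted gene, was low on probe set 1433885_at where the label says WT 6 months, with 8.38, 8.24 and 8.33. It was high under the label KO 24 months tumor, with 12.15, 12.05 and 12.15. Its values in KO 6 months were 8.07 to 8.68 and in WT 24 months 11.92 to 12.30. Afp, the fetal liver protein used as a tumor marker, read 12.04, 13.05 and 13.27 on probe set 1416646_at in the arrays labelled WT 6 months and between 5.85 and 7.62 in the other 9. Iqgap2 goes against both of these labels and Afp sets the same arrays apart, in the way that an exchange of these groups would. The deposited labels are kept below, and groups are called by them. If they were exchanged, the arrays labelled WT 6 months would be the tumors, their comparisons with WT 24 months and KO 6 months would be those of the tumors, and the comparisons of the arrays labelled KO 24 months tumor would be those of young WT liver.

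The promoters of the members show where TCF/LEF proteins could meet their DNA. RefSeq windows of 250 bases before to 50 bases after the transcript start (build GRCm38.p6) were at hand for 6 members and 11 transcript starts. They were searched on both strands for 4 motifs of TCF/LEF proteins, each of 7 letters, which share their start and cannot overlap each other on the same strand. Of all 32851 windows of this length 5.14% held CTTTGAA, while 3.73% held CTTTGAT. Another 3.63% held CTTTGTA, and for CTTTGTT the share was 5.85%. Any of the 4 motifs was found in 3 of the 11 windows of the members, against 16.9% of all windows. Sp5 held CTTTGAT on its own strand 104 bases before the start and CTTTGTT on the opposite strand 222 bases before it. The second start of Tnfrsf19 had CTTTGAT on the opposite strand at 202 bases, and the fourth start of Lef1 had CTTTGTA on the opposite strand at 147 bases. The 3 windows with a motif are printed 5′ to 3′ with the motif in capitals, which reads as its reverse complement where it lies on the opposite strand. Those of Axin2 and Nkd1 follow, since these genes are the classic readout of the pathway and the member with the largest difference. No motif lay in either. A match is a string of letters, and binding was not measured.

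Sp5, chr2:70474673-70474972, plus strand: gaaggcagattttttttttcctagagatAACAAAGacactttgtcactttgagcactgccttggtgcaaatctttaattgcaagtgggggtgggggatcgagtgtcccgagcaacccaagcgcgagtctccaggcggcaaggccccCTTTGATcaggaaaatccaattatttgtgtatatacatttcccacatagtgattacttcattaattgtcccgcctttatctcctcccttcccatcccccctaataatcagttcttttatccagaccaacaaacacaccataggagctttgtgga
Tnfrsf19, chr14:61037938-61038237, minus strand: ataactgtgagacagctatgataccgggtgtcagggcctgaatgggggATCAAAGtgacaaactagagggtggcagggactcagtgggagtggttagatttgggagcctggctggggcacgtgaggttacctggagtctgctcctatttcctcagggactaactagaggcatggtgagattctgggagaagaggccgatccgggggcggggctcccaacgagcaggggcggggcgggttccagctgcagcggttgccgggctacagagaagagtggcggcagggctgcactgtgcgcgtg
Lef1, chr3:131156044-131156343, plus strand: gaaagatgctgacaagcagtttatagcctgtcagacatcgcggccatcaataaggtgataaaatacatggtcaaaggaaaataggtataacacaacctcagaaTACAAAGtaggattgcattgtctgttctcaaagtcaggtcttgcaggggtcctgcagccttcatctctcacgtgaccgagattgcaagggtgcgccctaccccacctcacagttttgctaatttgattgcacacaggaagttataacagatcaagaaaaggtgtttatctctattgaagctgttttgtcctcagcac
Axin2, chr11:108920099-108920398, plus strand: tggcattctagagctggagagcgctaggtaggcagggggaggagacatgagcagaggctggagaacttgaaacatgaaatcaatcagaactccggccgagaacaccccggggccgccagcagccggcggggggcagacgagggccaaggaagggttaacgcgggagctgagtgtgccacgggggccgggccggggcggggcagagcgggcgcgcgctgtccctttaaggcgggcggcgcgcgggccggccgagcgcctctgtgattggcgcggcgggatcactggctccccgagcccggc
Nkd1, chr8:88527383-88527682, plus strand: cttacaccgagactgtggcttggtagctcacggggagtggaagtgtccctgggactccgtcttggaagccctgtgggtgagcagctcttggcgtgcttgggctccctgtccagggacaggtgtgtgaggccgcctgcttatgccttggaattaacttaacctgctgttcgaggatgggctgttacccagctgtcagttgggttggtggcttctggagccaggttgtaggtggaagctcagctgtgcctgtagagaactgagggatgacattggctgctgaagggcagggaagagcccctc

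The arrays labelled WT 6 months stood above the 9 others on 21 of the 23 probe sets, with every array of the group higher than every array outside it, while 5.87% of all probe sets did so. The probe sets that did not were a pair for Tbx3. The members also had 21 of 23 probe sets higher in WT 6 months than in WT 24 months at an adjusted p under 0.05 from limma and 0 lower, where 4.95% of all probe sets were higher and 3.79% lower. Against KO 6 months 20 were higher and 0 lower, where 6.02% of all probe sets were higher and 6.1% lower. The groups did not overlap on 21 and 22 of the 23 in these comparisons, and on 11.5% and 14.2% of all probe sets. The median difference over the 23 probe sets was 2.06 and 2.05 on the log2 scale in these comparisons, and over all probe sets it was -0.00 and -0.04. Each of the 10 genes was called by its brightest probe set, the one with the highest mean over all arrays. These comparisons share the 3 arrays labelled WT 6 months and are not independent of each other. A bulk array cannot tell apart more cells that make an RNA and more RNA per cell.

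**Figure D1:**
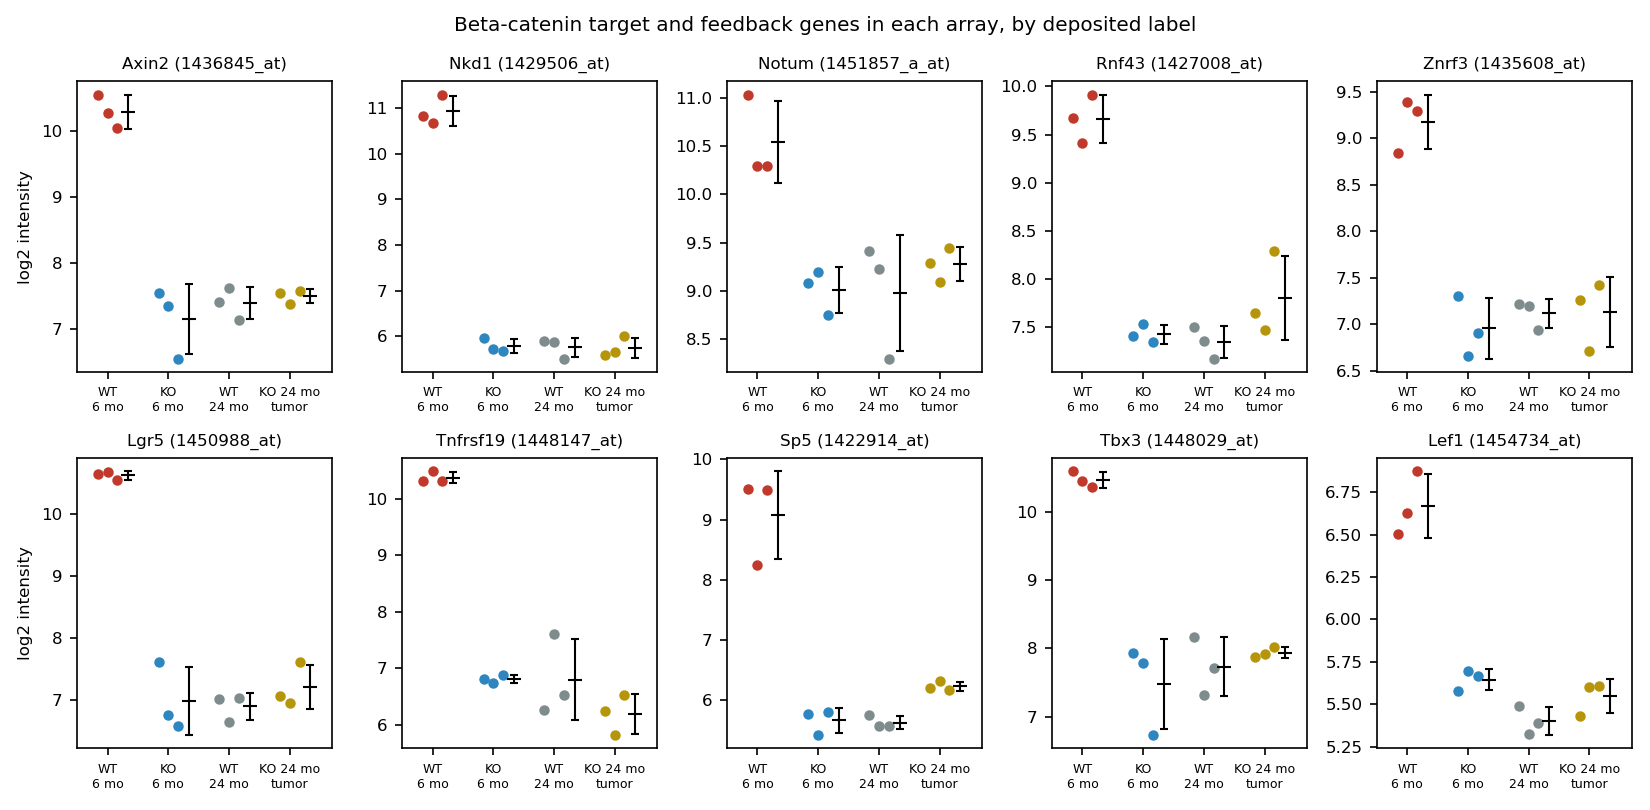
Each panel plots 1 gene by its brightest probe set, with log2 intensity on its own y axis and the 4 groups by deposited label on the x axis; points are single arrays and the black mark with bars is the mean ± SD of 3 arrays. In every panel the 3 arrays labelled WT 6 months lie above the 9 others, from 10.66 to 11.29 against 5.51 to 6.01 for Nkd1.

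The inhibitors inside the cell are Nkd1 and Axin2, and Nkd1 had the largest difference of all members. Nkd1, which binds Dishevelled and dampens the signal behind the receptor, read 10.83, 10.66 and 11.29 on probe set 1429506_at in WT 6 months, 5.95, 5.72 and 5.67 in KO 6 months, 5.89, 5.86 and 5.51 in WT 24 months, and 5.60, 5.65 and 6.01 in KO 24 months tumor. The 9 low arrays lay within 0.49 of each other, and the gap to the lowest array of WT 6 months was 4.66. The difference from WT 24 months was 5.17 (SE 0.18, adjusted p = 2.51e-08 from limma), or 36.0-fold, and it was rank 9 of all 45101 probe sets counted from the largest increase. From KO 6 months it was 5.15 (SE 0.18, adjusted p = 3.09e-08). The other probe sets of Nkd1 moved the same way by less. Probe set 1417278_a_at was 4.39 higher than in WT 24 months, 1440446_at 1.51 and 1429507_at 1.05, all with an adjusted p of 0.000278 or lower from limma.

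Axin2, a scaffold of the destruction complex and the usual readout of β-catenin activity, read 10.56, 10.29 and 10.04 on probe set 1436845_at in WT 6 months, 7.55, 7.36 and 6.55 in KO 6 months, 7.41, 7.63 and 7.14 in WT 24 months, and 7.55, 7.38 and 7.58 in KO 24 months tumor. The 3 lower groups overlapped, and replicate 3 of KO 6 months was the lowest array. Axin2 was 2.90 higher than in WT 24 months (SE 0.23, adjusted p = 1.67e-05 from limma), or 7.47-fold, and 3.14 higher than in KO 6 months (SE 0.23, adjusted p = 7.45e-06). Its dimmer probe set 1421341_at rose by 1.67 and 1.39 in these comparisons.

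The other inhibitors act at the cell surface or outside the cell. Rnf43 and Znrf3 are membrane-bound ubiquitin ligases that remove Frizzled receptors. Rnf43 read 9.67, 9.41 and 9.91 on probe set 1427008_at in WT 6 months, 7.41, 7.53 and 7.34 in KO 6 months, 7.50, 7.36 and 7.17 in WT 24 months, and 7.65, 7.47 and 8.29 in KO 24 months tumor. Replicate 3 of KO 24 months tumor was the highest of the 9 low arrays. Rnf43 was 2.32 higher in WT 6 months than in WT 24 months (SE 0.20, adjusted p = 2.61e-05 from limma) and 2.24 higher than in KO 6 months (SE 0.20, adjusted p = 2.91e-05).

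Znrf3 read 8.84, 9.39 and 9.29 on probe set 1435608_at in WT 6 months, 7.30, 6.66 and 6.90 in KO 6 months, 7.22, 7.19 and 6.94 in WT 24 months, and 7.26, 6.71 and 7.41 in KO 24 months tumor. The difference from WT 24 months was 2.06 (SE 0.22, adjusted p = 0.000131 from limma) and that from KO 6 months 2.22 (SE 0.22, adjusted p = 6.3e-05). Probe set 1437646_at of Znrf3 differed little. It was 0.52 higher than in WT 24 months (adjusted p = 0.0311) and 0.32 above KO 6 months (adjusted p = 0.15 from limma), and its lowest array of WT 6 months lay 0.01 above the highest of the 9 others.

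Notum, a secreted enzyme that strips the lipid from Wnt proteins, had the smallest difference and the largest SE among the inhibitors, each taken by its brightest probe set. It read 11.04, 10.30 and 10.29 on probe set 1451857_a_at in WT 6 months, 9.08, 9.20 and 8.74 in KO 6 months, 9.42, 9.23 and 8.29 in WT 24 months, and 9.28, 9.09 and 9.45 in KO 24 months tumor. The groups did not overlap between WT 6 months and the rest, by a gap of 0.85. Notum was 1.56 higher than in WT 24 months (SE 0.28, adjusted p = 0.0046 from limma), or 2.96-fold, and 1.54 higher than in KO 6 months (SE 0.28, adjusted p = 0.00438). With only the groups compared in the fit, the first of these reached an adjusted p of 0.0694, and by SAM, the study's method, which called 1.05% of all probe sets higher there, 0.124.

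Among the receptors, Lgr5 binds R-spondins, which boost the Wnt signal, and marks hepatocytes next to the central vein. It read 10.65, 10.68 and 10.55 on probe set 1450988_at in WT 6 months, 7.62, 6.76 and 6.59 in KO 6 months, 7.02, 6.65 and 7.04 in WT 24 months, and 7.06, 6.96 and 7.62 in KO 24 months tumor. The high arrays had an SD of 0.07, the smallest in that group among the brightest probe sets of the 10 genes. Lgr5 was 3.72 higher than in WT 24 months (SE 0.25, adjusted p = 4.16e-06 from limma), or 13.2-fold, and 3.63 higher than in KO 6 months (SE 0.25, adjusted p = 4.45e-06). Probe set 1444519_at, at 4.61 to 5.41 in all 12 arrays, was 0.44 and 0.62 higher in these comparisons.

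Tnfrsf19, a receptor of the tumor necrosis factor family also called Troy, read 10.31, 10.48 and 10.30 on probe set 1448147_at in WT 6 months, 6.82, 6.74 and 6.88 in KO 6 months, 6.26, 7.61 and 6.53 in WT 24 months, and 6.25, 5.82 and 6.53 in KO 24 months tumor. It had the widest range over the 9 low arrays, 1.79, through replicate 2 of WT 24 months. The difference from WT 24 months was 3.57 (SE 0.29, adjusted p = 1.7e-05 from limma) and that from KO 6 months 3.56 (SE 0.29, adjusted p = 1.48e-05). Probe sets 1425212_a_at and 1415921_a_at were 2.27 and 1.41 higher than in WT 24 months, and 2.05 and 1.29 higher than in KO 6 months.

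The transcription factors among the members carry the signal on or limit it. Sp5, a zinc-finger protein of the Sp family that restrains other Wnt targets, read 9.50, 8.24 and 9.49 on probe set 1422914_at in WT 6 months, 5.77, 5.42 and 5.80 in KO 6 months, 5.75, 5.56 and 5.56 in WT 24 months, and 6.21, 6.31 and 6.16 in KO 24 months tumor. Replicate 2 was the low array of WT 6 months, still 1.93 above the highest of the 9 others. Sp5 was 3.45 higher than in WT 24 months (SE 0.27, adjusted p = 1.49e-05 from limma) and 3.42 higher than in KO 6 months (SE 0.27, adjusted p = 1.37e-05). Its promoter window was the only one printed here with a pair of motifs.

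Tbx3, a T-box repressor, read 10.60, 10.45 and 10.37 on probe set 1448029_at in WT 6 months, 7.93, 7.78 and 6.73 in KO 6 months, 8.17, 7.32 and 7.71 in WT 24 months, and 7.88, 7.92 and 8.02 in KO 24 months tumor. It was 2.74 higher than in WT 24 months (SE 0.28, adjusted p = 0.000108 from limma) and 2.99 higher than in KO 6 months (SE 0.28, adjusted p = 4.61e-05). Its 5 probe sets did not move alike. Probe sets 1437479_x_at and 1445757_at were 2.83 and 2.14 higher than in WT 24 months, while 1439567_at differed by 0.20 (adjusted p = 0.545) and 1444594_at by 0.06 (adjusted p = 0.789 from limma). The last of these read 4.34 to 4.61 in every array of the series.

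Lef1, the partner through which β-catenin reaches DNA in many cells, read 6.50, 6.63 and 6.88 on probe set 1454734_at in WT 6 months, 5.58, 5.70 and 5.66 in KO 6 months, 5.49, 5.32 and 5.39 in WT 24 months, and 5.43, 5.60 and 5.61 in KO 24 months tumor. Its difference was the smallest among the brightest probe sets of the 10 genes, 1.27 from WT 24 months (SE 0.11, adjusted p = 2.84e-05 from limma) and 1.02 from KO 6 months (SE 0.11, adjusted p = 0.00013). Probe set 1421299_a_at was 0.89 and 0.79 higher. T cells also make Lef1. Of 10 T cell markers measured, 0 were called in either comparison (by limma), and their mean log2 intensity was 4.90 to 5.00 in WT 6 months, 4.99 to 5.10 in KO 6 months, 4.96 to 5.65 in WT 24 months and 4.90 to 5.09 in KO 24 months tumor. The defining T cell gene Cd3e averaged 6.34, 6.30, 6.55 and 6.33 in these groups.

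**Figure D2:**
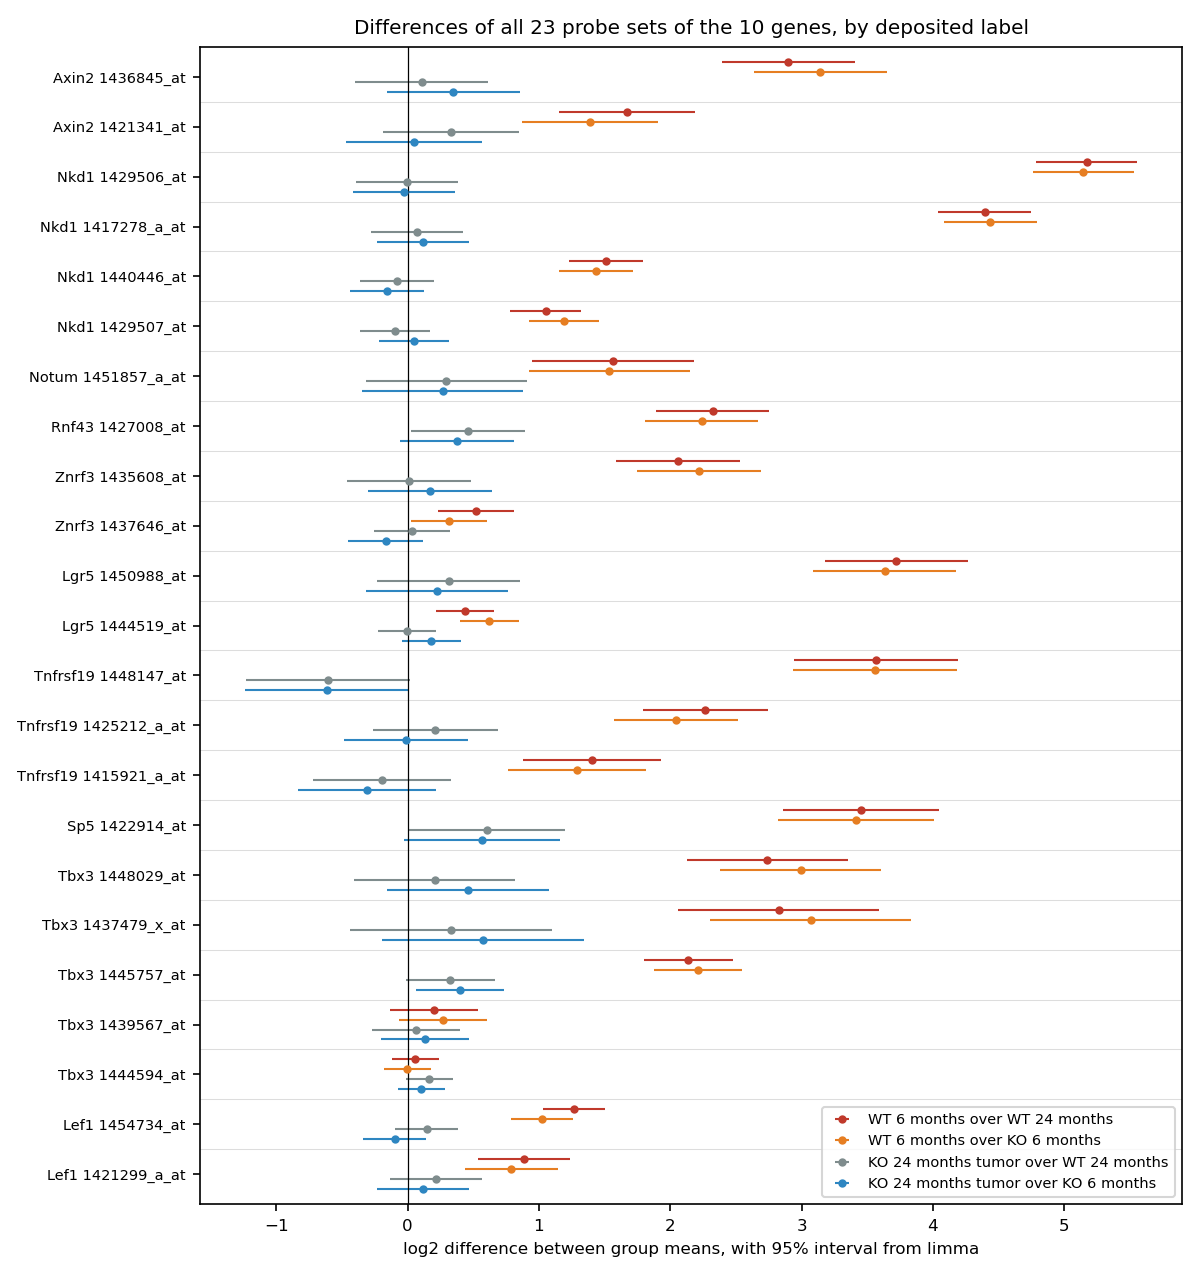
The plot gives the log2 difference between group means of each of the 23 probe sets on the x axis, with its 95% interval from limma, for 4 comparisons by deposited label. The red and orange points of WT 6 months reach 5.17 for Nkd1 and lie near 0 for the Tbx3 probe set 1444594_at, while the grey and blue points of KO 24 months tumor run from -0.61 to 0.60.

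The study's thresholds of 3-fold and 0.05 were applied to the fold and the adjusted p from limma, where the study used SAM. By these, 13 of the 23 probe sets and 8 of the 10 genes remained higher in WT 6 months than in WT 24 months. Of all probe sets 0.882% did. The genes left out were Notum and Lef1. Against KO 6 months it was 12 probe sets and 8 genes, and 1.03% of all. Set against the mean of the 3 other groups, a comparison chosen with earlier results known, 21 of 23 were higher and 0 lower at the adjusted p alone (8.19% and 7.6% of all) and 12 with the fold (0.987% of all).

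The arrays labelled KO 24 months tumor gave no call on any member by limma, and 1 by SAM. Against WT 24 months limma called 0 of 23 probe sets higher and 0 lower, where 0.122% and 0.115% of all probe sets were called. The differences ran from -0.60 for Tnfrsf19 to 0.60 for Sp5, with a median of 0.15 (0.05 over all probe sets). At an unadjusted p under 0.05, 2 members were higher and 0 lower, against 9.51% and 5.82% of all probe sets. These were Rnf43, at 0.46 (95% interval 0.03 to 0.89, adjusted p = 0.298 from limma), and Sp5, at 0.60 (95% interval 0.01 to 1.20, adjusted p = 0.32 from limma). SAM called 1 member, Sp5, higher with a false discovery rate of 0.0399 and 0 lower, against 0.288% and 0.290% of all probe sets. The arrays of Sp5 did not overlap between these groups, and 2 of 23 members in all were higher without overlap, against 13% of all probe sets. For Axin2 the difference was 0.11 (95% interval -0.40 to 0.61), for Nkd1 -0.00 (95% interval -0.39 to 0.38) and for Lgr5 0.31 (95% interval -0.23 to 0.86).

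Against KO 6 months, 0 of 23 were higher and 0 lower by limma, where 0.0177% and 0.00222% of all probe sets were called, and SAM called 0, against 0.135% higher and 0.142% lower of all probe sets. The differences ran from -0.61 to 0.57. The probe set 1445757_at of Tbx3 was the only one at an unadjusted p under 0.05, with a difference of 0.40 (95% interval 0.06 to 0.73, adjusted p = 0.74 from limma), while 3.45% of all probe sets were higher and 2.65% lower at that threshold. Without overlap 4 members were higher and 1 lower, while 7.28% and 7.35% of all probe sets were. These intervals exclude for Nkd1, Lgr5, Axin2 and Sp5 a change of the size that WT 6 months had, and they do not show that the groups were alike.

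Among the 9 arrays outside WT 6 months, the order of the 3 group means changed from gene to gene. KO 24 months tumor was second to WT 6 months for Axin2, Notum, Rnf43, Znrf3, Lgr5, Sp5 and Tbx3, and KO 6 months for Nkd1, Tnfrsf19 and Lef1. The 3 means lay within 0.03 of each other for Nkd1, and within 0.61 for Tnfrsf19, the gene with the largest gap. None of these neighbours was called by limma where KO 24 months tumor was of the pair, and KO 6 months against WT 24 months was not compared. Replicate 3 of KO 24 months tumor was the highest array of its group for 9 of the 10 genes. In WT 24 months, replicate 3 was the lowest of its group for 6 of the 10. In that array the 7 Kupffer cell markers averaged 11.80, against 8.17 and 8.98 in the other arrays of the group. Without this array 20 of 23 members were higher in WT 6 months than in WT 24 months. Of all 45101 probe sets 2226 were. The part of this array in the result was not tested.

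**Figure D3:**
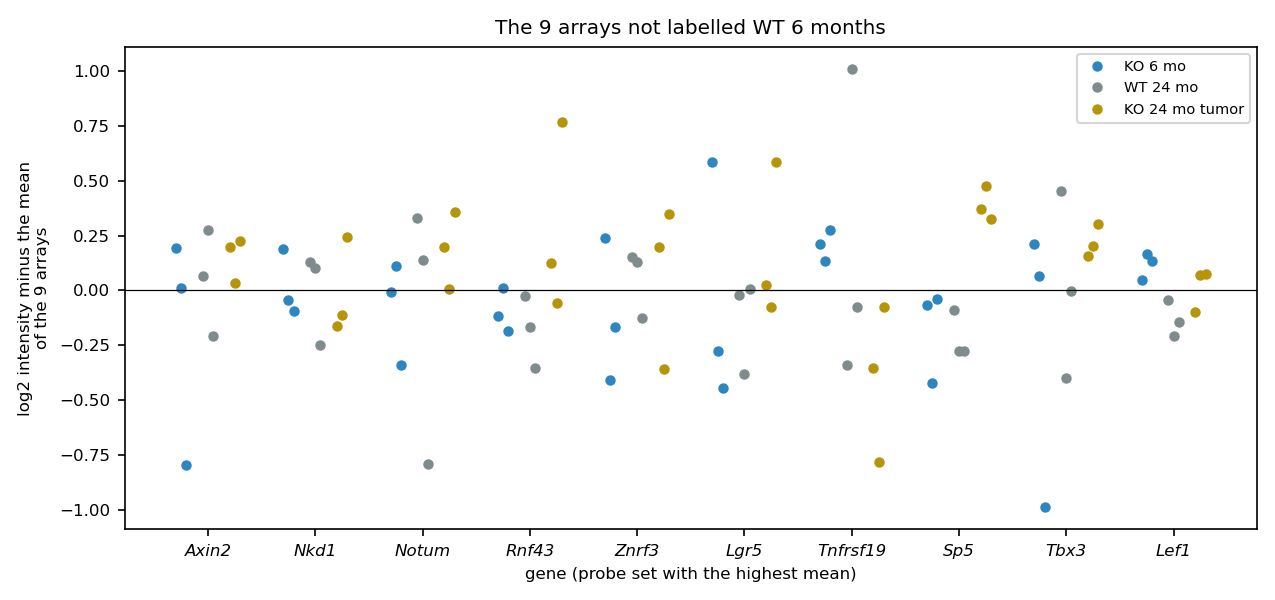
The plot gives, for each gene by its brightest probe set, the log2 intensity of the 9 arrays not labelled WT 6 months minus their mean on the y axis, with 1 point an array and 1 color a group. The groups overlap for most genes; the 3 arrays of KO 24 months tumor lie above the rest for Sp5, from 6.16 to 6.31 before centering.

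The difference between KO and WT arrays was not the same at both ages. The interaction, the change with age in the arrays labelled KO minus that in those labelled WT, uses the same arrays with the same signs whether or not the labels are exchanged. It shares the 3 arrays labelled WT 6 months with the comparisons above and is not independent of them. Tumor tissue was in a single group, so tissue cannot be told apart from genotype and age. The interaction was called for 19 of the 23 probe sets, all positive. Of all probe sets, 1.72% had a positive and 1.42% a negative call. The median was 2.23 over the members and 0.01 over all. Nkd1 had an interaction of 5.14 (SE 0.25, adjusted p = 1.55e-06 from limma), Sp5 of 4.02 (SE 0.38, adjusted p = 0.000169), Lgr5 of 3.95 (SE 0.35, adjusted p = 0.000105) and Axin2 of 3.25 (SE 0.33, adjusted p = 0.000237). Notum was nearest the threshold among the brightest probe sets, at 1.83 (SE 0.40, adjusted p = 0.0292), and was no longer called when any array of KO 6 months or KO 24 months tumor was left out (adjusted p from 0.0538 to 0.0858 by limma). The probe sets without a call were 1437646_at of Znrf3, 1415921_a_at of Tnfrsf19, and 1439567_at and 1444594_at of Tbx3.

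Of the rest of the pathway, the targets in liver come first. Among 11 genes of the hepatocytes around the central vein that depend on β-catenin, counted without the members, 10 were higher in WT 6 months than in WT 24 months and 0 lower, and 9 were higher than in KO 6 months, against 6.36% and 7.48% of all genes. Their median difference was 1.56 and 1.86 (-0.01 and -0.05 over all genes). Slc1a2, a glutamate transporter, was 4.17 higher than in WT 24 months (SE 0.41, adjusted p = 7.88e-05 from limma) and 4.49 higher than in KO 6 months. Rhbg, an ammonium transporter, was 3.69 higher (SE 0.23, adjusted p = 2.49e-06) and 5.06 higher. Glul, the glutamine synthetase that takes up ammonia at the central vein, was 1.11 higher (SE 0.18, adjusted p = 0.00242) and 1.86 higher. Oat, Lhpp, Cyp1a2, Lect2 and Avpr1a also rose in both comparisons. Cyp2e1, a cytochrome of the same zone, differed by 0.10 (adjusted p = 0.592), at 14.54 to 14.64 in the means of all 4 groups.

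The list of other known β-catenin targets, most of them described in gut or embryo, had 23 genes measured. Of these, 6 were higher and 1 lower than in WT 24 months, where 6.36% of all genes were higher and 5.39% lower. Against KO 6 months 8 were higher and 1 lower, where 7.48% of all genes were higher and 8.14% lower. Birc5, the inhibitor of cell death survivin, which also peaks in dividing cells, was 2.35 higher than in WT 24 months (SE 0.22, adjusted p = 5.41e-05 from limma) and was the 1 gene of the list called in the interaction (2.24% of all genes were higher there and 1.93% lower). Sox4 rose by 0.80 (adjusted p = 0.00448) and Ccnd1, cyclin D1 of the cell cycle, by 1.73 (adjusted p = 0.0191). Wif1, a secreted Wnt inhibitor, rose by 2.21 (adjusted p = 0.0159). Id2 was lower than in WT 24 months, with a difference of -1.03 (adjusted p = 0.0407 from limma). Myc differed by 0.57 from WT 24 months (adjusted p = 0.454) and by 1.53 from KO 6 months (adjusted p = 0.0206). The median over the list was -0.04 against WT 24 months, near that of all genes.

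Ligands were called in both directions. Of 33 secreted ligands, R-spondins and antagonists, 3 were higher and 4 lower than in WT 24 months, against 6.36% and 5.39% of all genes. Against KO 6 months 3 were higher and 7 lower, where 7.48% and 8.14% of all genes were. Rspo3, the R-spondin made by central vein endothelium that feeds Lgr receptors, was lower in both comparisons, with a difference of -1.84 from WT 24 months (SE 0.22, adjusted p = 0.000355 from limma) and of -1.90 from KO 6 months. Wnt2, a ligand of liver endothelium, differed from WT 24 months by -1.13 (adjusted p = 0.0224), Rspo1 by -0.51 (adjusted p = 0.0354) and Wnt5a by 1.12 (adjusted p = 0.0021). Wif1 also belongs to this list. Of 17 receptors and co-receptors, Fzd7 was the 1 gene higher than in WT 24 months, by 0.89 (adjusted p = 0.0323 from limma). Lrp6 was the 1 gene lower than in KO 6 months, with a difference of -0.58 (adjusted p = 0.0209). Each was 5.88% of the list, no more than among all genes, of which 6.36% were higher and 8.14% lower in these comparisons.

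Among 25 genes of the destruction complex and the steps behind it, 2 were higher and 3 lower than in WT 24 months, against 6.36% and 5.39% of all genes, and 5 higher and 3 lower than in KO 6 months, against 7.48% and 8.14%. Nlk, a kinase that phosphorylates TCF/LEF proteins, was 2.91 higher than in WT 24 months (SE 0.18, adjusted p = 2.09e-06 from limma). Ctnnbip1, which binds β-catenin and keeps it from TCF proteins, was lower, with a difference of -1.74 (SE 0.13, adjusted p = 1.19e-05). Both were also called in the interaction, at 3.13 and -1.92. Tle4, a co-repressor of TCF proteins, differed by -0.71 (adjusted p = 0.0116). Ctnnb1, the gene of β-catenin itself, was 0.34 higher than in WT 24 months (adjusted p = 0.0716) and 0.40 higher than in KO 6 months (adjusted p = 0.029). In the comparisons of the arrays labelled KO 24 months tumor, limma called 0 genes of all 5 lists, where 0.192% of all genes were higher and 0.121% lower than in WT 24 months, and 0.022% higher and 0% lower than in KO 6 months.

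**Figure D4:**
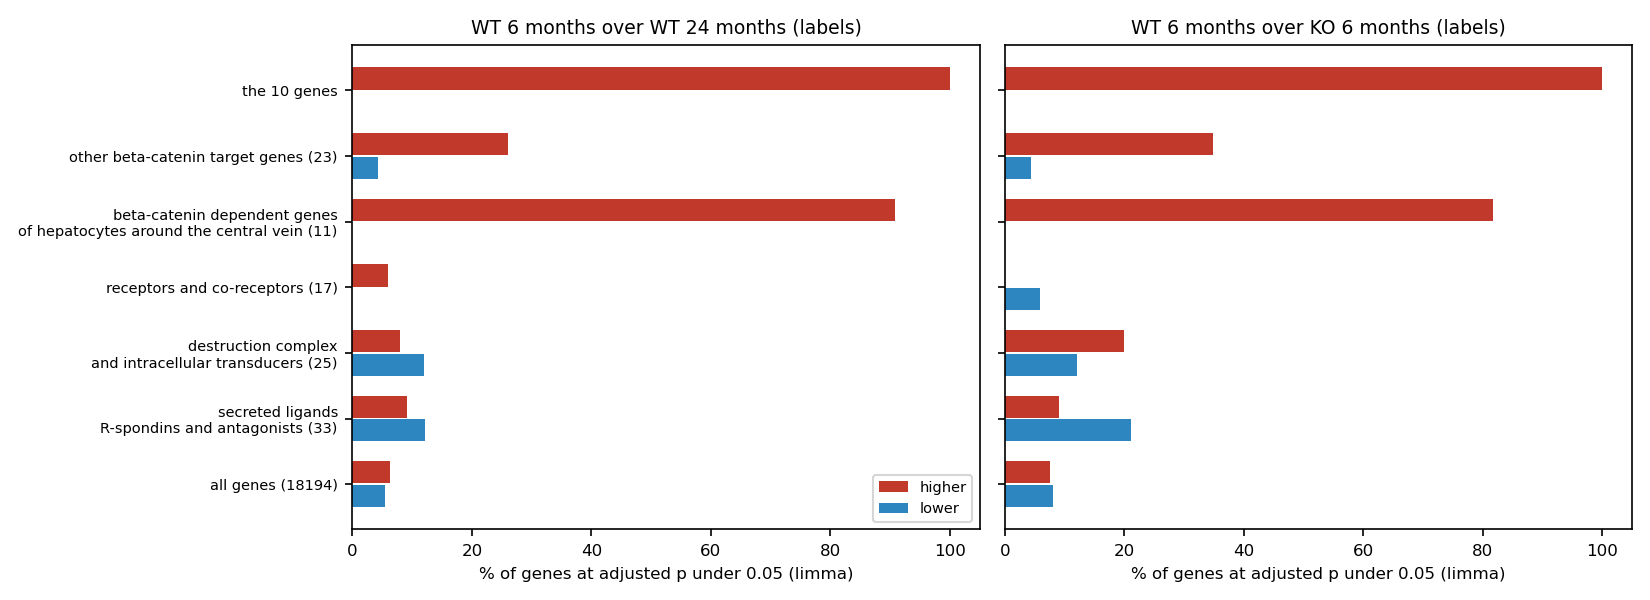
Bars give the percentage of the genes of each list, with the number measured in parentheses and each gene by its brightest probe set, that were higher (red) or lower (blue) at an adjusted p under 0.05 from limma, for WT 6 months against WT 24 months on the left and against KO 6 months on the right. The 10 target and feedback genes were all higher, the genes around the central vein at 90.9% and 81.8%, and the other lists at 0% to 34.8%, with all genes at 6.36% and 7.48%.

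Markers of some cell types also differed in WT 6 months, in both directions. Of all genes, 6.36% were higher and 5.39% lower against WT 24 months, and 7.48% higher and 8.14% lower against KO 6 months. In WT 6 months all 5 measured markers of hepatocytes around the portal vein were lower than in WT 24 months, and their mean was 7.17 to 8.42 against 12.46 to 13.24 in the other 9 arrays. The general hepatocyte markers averaged 14.01 to 14.25 in WT 6 months and 13.90 to 14.29 elsewhere, with 0 of 5 called by limma against WT 24 months and 1 (Apob, higher) against KO 6 months. Sinusoidal endothelium had 8 of 9 markers lower against WT 24 months, at 6.39 to 7.13 against 7.56 to 8.95 in the other 9 arrays, and stellate cells 6 of 9 lower, at 6.25 to 6.88 against 7.42 to 8.10. All 5 markers of cycling cells were higher, at 6.51 to 7.10 against 4.55 to 5.81. Of 5 bile duct and 4 B cell markers 0 were called against WT 24 months by limma. Of 7 Kupffer cell markers 1 was called, Clec4f, which was lower. Against KO 6 months 5 portal, 7 endothelial and 6 stellate cell markers were lower and 5 of cycling cells higher. There 1 bile duct marker, Krt7, and 1 B cell marker, Cd79a, were lower, and 0 Kupffer cell markers were called. Their part in the members' differences was not tested.

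The genes most like a member were sought for the 8 members whose group means spanned over 2 log2 units, by the root mean square difference over the 12 arrays between centered log2 values. For Axin2 they were Tbx3 (0.27), Airn (0.28) and Meg3 (0.30), so that a member stood first. For Tbx3 they were Axin2 (0.27), Dyrk3 (0.37) and Srxn1 (0.37). Nkd1 had Mirg (0.28), Nptx1 (0.29) and Duoxa1 (0.41), and Sp5 had Reep1 (0.29), Car4 (0.34) and Meg3 (0.38). Lgr5 had Slc1a2 (0.27), the glutamate transporter of the central vein list, Col8a1 (0.31) and Atp10a (0.34). Tnfrsf19 had Car2 (0.28), Prss8 (0.31) and Scd2 (0.35). Rnf43 had Pdgfa (0.18), Tbx3 (0.25) and Meg3 (0.26), and Znrf3 had Srxn1 (0.23), Pdgfa (0.24) and Dcbld2 (0.24). All of these genes were higher in WT 6 months than in the other groups, which the measure requires, and Meg3, Mirg and Airn are imprinted noncoding RNAs.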

How the data were processed

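Liver RNA of 12 mice was measured on 12 Affymetrix mouse genome arrays, 1 an animal. The deposited values are log2 intensities that the authors made by RMA (background correction, quantile normalization and summary of each probe set) in R with simpleaffy, whose version is not given in the sources used here. No depth or detection p comes with them, and the 3 arrays of a group limit the precision. Array medians lay between 5.41 and 5.45, and no 2 arrays held the same values (12 distinct profiles).

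Groups were taken from the labels, which call the arrays biological replicates. The platform annotation named 1 gene for 34958 probe sets, several for 932 and none for 9211, and no probe set of a member named a second gene. A linear model of the 4 group means was fitted to all 45101 probe sets with limma 3.58.1 in R 4.3.3, where the study used SAM, and p-values were adjusted over all of them (Benjamini-Hochberg). A call is an adjusted p under 0.05 without a fold. An exact permutation test of 3 arrays against 3 cannot go below p = 0.1. List genes were taken by their brightest probe set, without the 10 members.

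Members, lists and comparisons were chosen with earlier results of these data known. The genes named are the members, Iqgap2 and Afp, the up to 4 genes a list with the lowest adjusted p, and the 3 genes most like a member; Apob, Clec4f, Ctnnb1, Cyp2e1 and genes of the lists named beyond these were chosen after their values were seen. The alternatives were SAM (over all 20 splits), a fit of the compared groups only, a replicate block, other centering, a trended and robust prior, other summaries of probe sets, a filter on dim probe sets, a 3-fold threshold and leaving out each array. An exchange of 2 group labels was added after the data were seen. The model was tested on simulated data. Promoters are RefSeq windows, and figures were drawn with matplotlib 3.10.9 in Python 3.11.15.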

Additional observations from a re-analysis of the deposited data

Results flagged for a closer look

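The interaction of genotype and age stays the same if the labels KO 24 months tumor and WT 6 months are exchanged. It passed an adjusted p of 0.05 from limma on 19 of the 23 probe sets. The difference between KO and WT arrays thus differed between 24 and 6 months by test. Tumor tissue in a single group cannot be told apart from genotype and age in it. On the log2 scale the interaction was 5.14, 4.51, 1.35 and 1.10 on the Nkd1 probe sets 1429506_at, 1417278_a_at, 1440446_at and 1429507_at. It was 4.02 for Sp5, 2.70 for Rnf43, 2.23 for Znrf3 and 1.83 for Notum. For Lgr5 it was 3.95 on 1450988_at and 0.62 on 1444519_at, and for Axin2 3.25 on 1436845_at and 1.72 on 1421341_at. Tbx3 had 3.40 on 1437479_x_at, 3.20 on 1448029_at and 2.54 on 1445757_at. Tnfrsf19 had 2.95 on 1448147_at and 2.26 on 1425212_a_at, and Lef1 1.17 on 1454734_at and 1.01 on 1421299_a_at. The adjusted p ran from 1.55e-06 for Nkd1 to 0.0398 for Lgr5 probe set 1444519_at. The calls of Lgr5 1444519_at and Lef1 1421299_a_at were lost in most of the fits that left out a single array. Both probe sets lay under the median intensity in every group. Over the alternatives their adjusted p from limma reached 0.105 and 0.091.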

How the results depend on the processing

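Each member's difference was recomputed under the alternatives that give 1 value a probe set (SAM and the fit of the compared groups for pairs of groups alone), while the 3-fold threshold, averaging probe sets by gene and the exchange of labels are given as counts of calls. In the former no called difference changed sign, 2517 values stayed on their side of the threshold, 48 lost their call and 1 gained it (Sp5 in KO 24 months tumor over WT 24 months, by SAM). With 1 value a gene, either the brightest probe set or the mean of its probe sets was taken. In each of the 3 comparisons of WT 6 months and in the interaction 10 of 10 genes were higher by either. By the brightest probe set, 1286, 1463, 1931 and 472 of all 18194 genes were higher. The order is WT 24 months, KO 6 months, the mean of the others and the interaction. By the mean of the probe sets it was 1272, 1307, 1830 and 498. With a fold of 3, 13, 12 and 12 probe sets were higher against WT 24 months, KO 6 months and the mean of the others. SAM called 15 higher against WT 24 months (1.05% of all probe sets), and 1 in KO 24 months tumor over WT 24 months. With the 2 labels exchanged, 21 members were higher in tumor over WT 24 months and 20 in tumor over KO 6 months. Of all 45101 probe sets 2234 and 2716 were. In WT 6 months 0 were higher over WT 24 months and 0 over KO 6 months, where 55 and 8 of all probe sets were. Against the mean of the others 0 were higher and 5 lower, where 442 and 509 of all probe sets were. The interaction kept 19, with 777 of all probe sets.

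Leaving out each array in turn gave 20 to 21 members higher against WT 24 months and 20 against KO 6 months. It gave 20 to 21 against the mean of the others, 16 to 18 in the interaction, and 0 in the comparisons of KO 24 months tumor. Of all 45101 probe sets, 1803 to 2226 and 1665 to 3187 were higher against WT 24 months and KO 6 months. Against the mean of the others it was 2631 to 4144, and in the interaction 479 to 954. Of 18 same-numbered pairs of arrays 3 correlated above 0.1 (-0.24 to 0.19). Their median was -0.03, against 0.00 for the other pairs. These values show no pairing by replicate number, and with 3 arrays a group they cannot exclude it. The replicate block left 20 members higher against WT 24 months and 17 in the interaction, with 2041 and 680 of all 45101 probe sets. The calls lost with the block were Znrf3 1437646_at (adjusted p = 0.0502 from limma) against WT 24 months, and Lef1 1421299_a_at (0.0685) and Lgr5 1444519_at (0.0833) in the interaction. Centering on 4 of the 5 housekeeping genes shifted the median of all probe sets. The shift was 0.15 against WT 24 months, 0.10 against KO 6 months, 0.13 against the mean of the others and 0.11 in the interaction. In these, 20, 20, 21 and 17 members were called higher, where 2770, 2873, 4463 and 858 of all 45101 probe sets were. A filter on dim probe sets kept 19 of the 23, of which 4 passed through WT 6 months alone (1421341_at of Axin2, 1417278_a_at of Nkd1, 1437646_at of Znrf3 and 1415921_a_at of Tnfrsf19). The members dropped by that filter, under the median intensity in every group, were 1421299_a_at of Lef1, 1439567_at and 1444594_at of Tbx3 and 1444519_at of Lgr5.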
